A study of Mus musculus with 8 samples.

Results

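The ligands of the epidermal growth factor (EGF) family and their ERBB receptors were followed in cells of the mouse neural crest line JoMa1 and in lines from tumours of MYCN-transfected JoMa1. The genes were taken by name from the platform annotation, with every probe set that carried 1 of 9 listed symbols. In all 8 of the 9 genes were found, on 18 of the 34945 probe sets with a single symbol, among 18193 genes. They were the 6 ligand genes Epgn, Ereg, Hbegf, Tgfa, Btc and Nrg1, on 10 probe sets, and the 2 receptor genes Egfr and Erbb2, on 8. The remaining ligand gene, Areg, was matched to no probe set and was not analysed here.

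EGF-family ligands are made as membrane proteins whose outer part is cut off by proteases and then binds receptors on the same or nearby cells. Epgn, Hbegf, Tgfa and Btc encode ligands of the EGF receptor, the product of Egfr. Ereg encodes a ligand of EGFR and ERBB4, Hbegf and Btc products bind ERBB4 as well, and Nrg1 encodes neuregulin, which binds ERBB3 and ERBB4. Erbb2 encodes a receptor without a known ligand that pairs with the others. Bound receptors form pairs and drive the RAS-ERK and PI3K-AKT pathways. In the neural crest, neuregulin signalling through ERBB2 and ERBB3 is known for its role in Schwann cells and in crest-derived sympathetic neurons.

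Each of the 8 samples was read on 1 Affymetrix array. Parental JoMa1 cells, not transfected, gave 3 arrays. A single array, the library labelled GFP-transfected, is called the GFP-labelled array. There were 4 arrays of lines from tumours of JoMa1-MYCN cells in immunocompromised mice, numbered 3 to 6. The labels call the last group tumours in some fields and lines derived from them in others, and the protocol harvests cells near confluency, so they are treated as lines. JoMa1 was made with a MYC fusion that tamoxifen activates, which all groups share, and whether tamoxifen was given is not stated in the sources used here. Whether parental arrays came from separate cultures is not stated either, so their spread may be technical. The tumours are called independent, but they may share a stock of transfected cells.

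Values are RMA levels on the log2 scale, in which 1 unit is a 2-fold difference, and ± gives the SD. Array medians lay between 6.26 and 6.30, and the bacterial trpnX controls averaged 3.84 to 4.04 per array, a level at which a probe set carries little signal. The difference between 3' and 5' control probe sets of Actb, a measure of RNA quality, was 0.6265 to 0.6405 in parental arrays, 0.6163 in the GFP-labelled array and, for tumour lines, 0.5165 to 0.6126. For Gapdh the same difference went the other way, with 0.0525 to 0.0782 in parental arrays, 0.075 in the GFP-labelled array and 0.0922 to 0.1506 in the lines, and for both controls parental arrays and lines did not overlap. The part of RNA quality in the results was not tested. On the brightest Mycn probe set parental arrays read 7.42 ± 0.12 (n = 3) and tumour lines 14.17 ± 0.08 (n = 4). The GFP-labelled array read 11.73 there, which goes against its label. A second Mycn probe set read 8.13 in parental arrays on average, 4.33 in the GFP-labelled array and 4.60 in tumour lines. Directions drawn from that array carry this limit. A gene is represented by its probe set with the highest mean, and is called where limma's Benjamini-Hochberg adjusted p over all genes was under 0.05. In bulk RNA, fewer cells with a transcript and less of it per cell cannot be told apart. Crest markers were mixed: of 12, the tumour lines had 2 called higher and 4 lower (16.6% and 19.4% of all genes were), with Tfap2b, Zic1 and Pax3 the largest falls (-5.20, -4.48 and -1.17). Pax3 was not called with the GFP-labelled array in the parental group (limma adjusted p = 0.0624). The 2 called higher were Msx1 (1.05) and Snai2 (0.53). The averaged crest list was 8.41 to 8.43 in parental cells and 7.57 to 7.97 in the lines. The median difference of its 12 genes was 0.05, so the lower average rests on the largest falls.

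Epgn and Btc carried the rises in the tumour lines and Egfr the largest fall, so the 250 bases before the start of each of these genes are shown, from RefSeq on GRCm38.p6, 5′ to 3′ on the strand of the gene. Epgn lies at chr5:91027267-91027516 on the plus strand, Btc at chr5:91402995-91403244 on the minus strand and Egfr at chr11:16751953-16752202 on the plus strand. Capitals mark matches on either strand to CCAAT or TATAAA.
Epgn: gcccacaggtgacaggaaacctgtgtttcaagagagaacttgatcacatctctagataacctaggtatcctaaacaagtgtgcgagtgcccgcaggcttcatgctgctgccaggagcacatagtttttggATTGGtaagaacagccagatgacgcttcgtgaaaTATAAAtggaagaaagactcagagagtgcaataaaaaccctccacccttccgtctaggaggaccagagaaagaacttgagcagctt
Btc: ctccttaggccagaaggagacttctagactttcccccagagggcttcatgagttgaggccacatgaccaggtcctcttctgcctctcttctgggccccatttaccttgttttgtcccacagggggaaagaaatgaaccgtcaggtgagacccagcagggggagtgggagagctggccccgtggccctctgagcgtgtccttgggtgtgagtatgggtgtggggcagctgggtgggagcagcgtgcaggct
Egfr: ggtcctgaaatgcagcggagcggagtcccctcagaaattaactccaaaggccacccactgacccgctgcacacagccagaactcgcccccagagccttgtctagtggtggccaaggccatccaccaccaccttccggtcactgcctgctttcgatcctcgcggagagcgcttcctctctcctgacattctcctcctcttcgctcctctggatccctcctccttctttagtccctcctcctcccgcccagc

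The E-box CACGTG, a sequence that MYC proteins are known to bind, was found in none of these 3 windows, and 6.02% of 32851 promoter windows of this length held it. The AP-1 motif TGANTCA (6.75% of windows) and the cyclic AMP element TGACGTCA (1.55%) were absent from all 3 too. Each motif was searched on both strands. The Epgn window held CCAAT on the opposite strand at -120 and TATAAA at -86, counted from the start. These were found in 33.8% and 12.4% of windows, and neither was found in the windows of Btc and Egfr. The base composition also differed, with 46.8% G or C in Epgn, 59.6% in Btc and 60.8% in Egfr.

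Lines from MYCN tumours were compared with parental cells first. Of the 8 genes 5 were called, against 36.0% of all genes. Epgn and Btc were higher, 2 genes where 16.6% of all genes were called higher, and Ereg, Tgfa and Egfr were lower, 3 genes where the share was 19.4%. All 4 tumour lines lay beyond all 3 parental arrays in these same 5 genes, as in 44.4% of all genes. The median difference of the 8 genes was -0.10, and that of all genes 0.01. Tested singly, 6 of the 18 probe sets were called, 3 in each direction, against 33.9% of all probe sets.

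Epgn, which encodes epigen, a weakly binding EGFR ligand, changed most. It read 5.95, 5.18 and 6.07 in parental arrays 1 to 3 and 11.07, 7.33, 11.72 and 9.47 in tumour lines 3 to 6. The groups did not overlap, and the lines were far apart among themselves while the parental arrays stayed in the low range. The means were 5.73 ± 0.49 and 9.90 ± 1.95, a difference of 4.17 (SE 0.92, 17.95-fold, limma adjusted p = 0.00746). The GFP-labelled array read 5.62, within the parental values, and differed from them by -0.11 (SE 1.39, which also holds the spread between tumour lines).

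Btc, the gene of betacellulin, rose less. Its brighter probe set read 6.30, 6.29 and 6.28 in parental arrays and 7.496, 6.82, 8.08 and 7.40 in tumour lines 3 to 6. The parental values were almost equal, and each tumour line lay above them. The difference was 1.16 (SE 0.24, 2.24-fold, limma adjusted p = 0.00592), with means of 6.29 ± 0.01 and 7.45 ± 0.52. The dimmer Btc probe set read 4.10, 4.31 and 4.01 in parental arrays, near the trpnX level, and from 4.29 in line 4 to 5.72 in line 5. It was also called among single probe sets (0.90, SE 0.28, adjusted p = 0.0349 in limma), but its parental values are near background, so this size is not a measured fold, and line 4 lay within them. The GFP-labelled array read 6.43 and 4.12 with these probe sets.

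**Figure D1:**
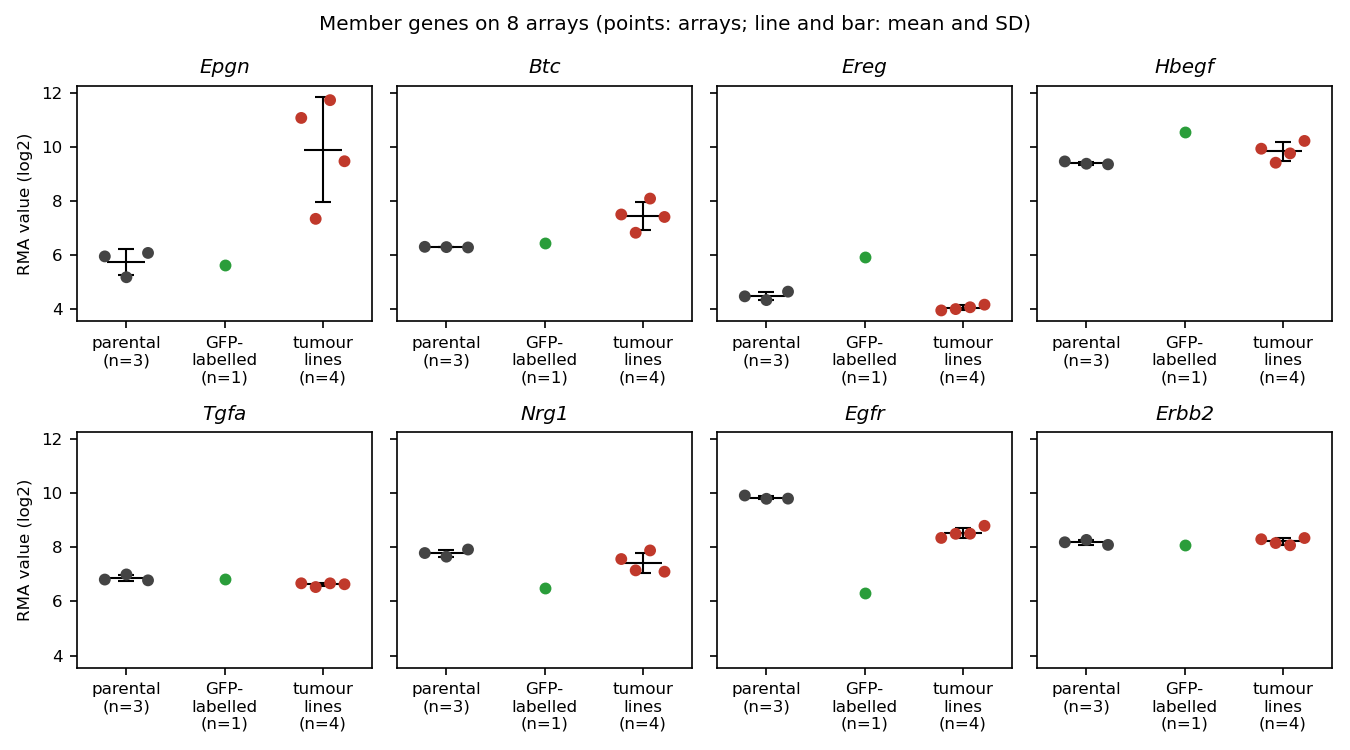
RMA values (log2) of the 8 genes, 1 panel per gene, in 3 parental arrays, 1 array labelled GFP-transfected and 4 tumour lines; points are arrays, lines with bars the mean and SD. Epgn spreads from 7.33 to 11.72 over the tumour lines, all above the highest parental value of 6.07, while Egfr drops from a parental mean of 9.84 to 8.54 in tumour lines and to 6.30 in the GFP-labelled array.

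Among the other ligands, Ereg, the gene of epiregulin, was dim in all samples. It read 4.47, 4.33 and 4.64 in parental arrays and 3.95, 3.997, 4.06 and 4.16 in tumour lines 3 to 6. The lines lay below the parental arrays and at or just above the level of the trpnX controls, so the size of the difference and the order of the lines are not well measured. The difference was -0.44 (SE 0.09, limma adjusted p = 0.00607). It was not called with the GFP-labelled array put among the parental group, where it was -0.80 (adjusted p = 0.0949, range over the alternatives 0.00389 to 0.0949).

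Hbegf, which encodes heparin-binding EGF-like growth factor, had 2 probe sets, and the groups overlapped on both. Its brighter probe set read 9.46, 9.37 and 9.35 in parental arrays and 9.93, 9.41, 9.76 and 10.22 in tumour lines. Line 4 lay within the parental values and the remaining lines above them. The difference of 0.43 (SE 0.17) was not called (limma adjusted p = 0.0777). Without line 4 it was 0.57 and called (adjusted p = 0.00741, range over the alternatives 0.00741 to 0.756). The other Hbegf probe set differed by 0.09 (SE 0.14).

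Tgfa, the gene of transforming growth factor alpha, had 3 probe sets that went different ways. The probe set with the highest mean read 6.81, 6.998 and 6.78 in parental arrays and 6.67, 6.53, 6.67 and 6.64 in tumour lines. The lines lay below the parental arrays by a small step, -0.24 (SE 0.08, limma adjusted p = 0.0473). This call ended without any of parental arrays 1, 2 and 3 (adjusted p = 0.0839, 0.169 and 0.0589) and without any of tumour lines 3 to 6 (0.0633, 0.0898, 0.0617 and 0.0791), and it was not made among single probe sets (0.0528). Over all alternatives its adjusted p ran from 0.0441 to 0.998. The dimmest Tgfa probe set differed by 0.21 (SE 0.08), with all lines above the parental arrays, and was not called (adjusted p = 0.0725), and the remaining probe set differed by 0.03 (SE 0.14).

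Nrg1 was measured by 1 probe set, which read 7.79, 7.66 and 7.92 in parental arrays and 7.57, 7.15, 7.89 and 7.10 in tumour lines. Lines 4 and 6 were lowest and line 5 lay within the parental values. The difference of -0.36 (SE 0.19) was not called (limma adjusted p = 0.178). Without line 5 it was -0.52 and called (adjusted p = 0.0221, range over the alternatives 0.0221 to 0.944).

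Of the receptors, Egfr fell. Its brightest probe set read 9.92, 9.80 and 9.80 in parental arrays and 8.35, 8.50, 8.50 and 8.80 in tumour lines. The groups were clear of each other, and the lines differed little among themselves. The difference was -1.30 (SE 0.11, 2.46-fold lower, limma adjusted p = 3.93e-05). It was not called with the GFP-labelled array put among the parental group (-0.42, adjusted p = 0.742, range over the alternatives 1.55e-05 to 0.742). Averaged over the 7 Egfr probe sets the difference was smaller, -0.31 (adjusted p = 0.00842).

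The probe sets of Egfr differed in what they showed. A second bright probe set, 1424932_at, read 8.75, 8.71 and 8.71 in parental arrays and 7.94, 7.81, 8.14 and 8.15 in the lines, and was called lower among single probe sets (-0.72, SE 0.10, limma adjusted p = 0.000557). Probe set 1460420_a_at, at 8.04 to 8.12 in parental cells, read 7.90 to 8.16 in the lines and differed by -0.02 (SE 0.08). The gap between 1435888_at and 1460420_a_at within an array was 1.75 ± 0.11 in parental arrays and 0.47 ± 0.18 in tumour lines, and its ranges (1.68 to 1.88 and 0.26 to 0.63) did not overlap. This pair was picked after its values were seen, so no test is given. The remaining 4 Egfr probe sets differed by between -0.10 and 0.06, were not called, and averaged at most 6.28 over all arrays. Which Egfr transcripts each probe set binds was not analysed here.

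**Figure D2:**
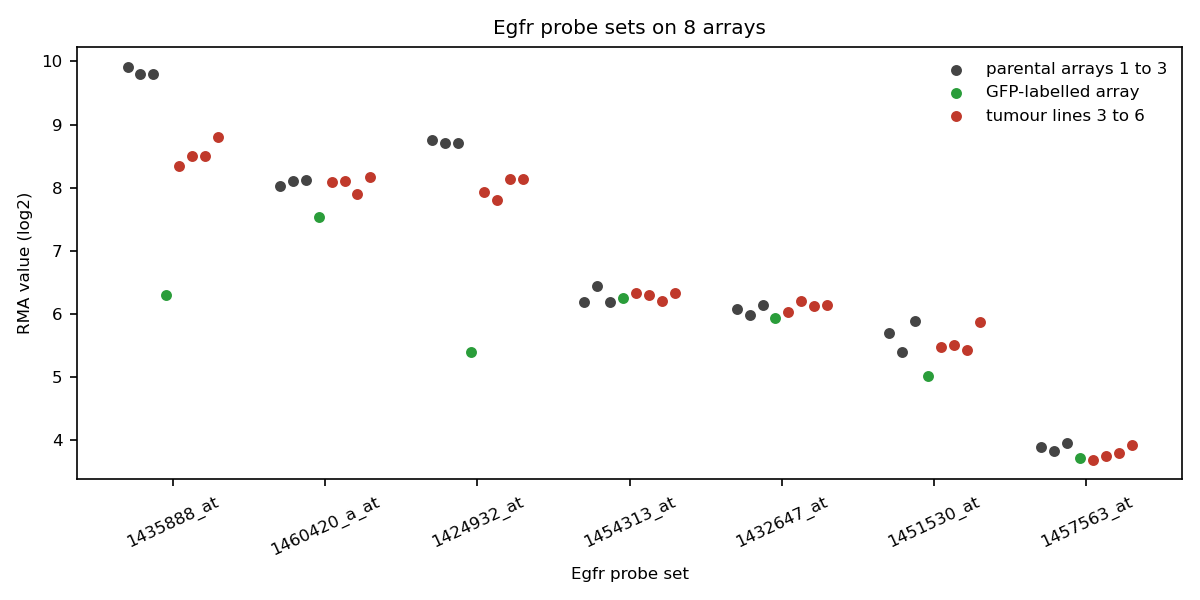
RMA values (log2) of the 7 Egfr probe sets on the 8 arrays, ordered by mean level, with parental arrays in grey, the GFP-labelled array in green and tumour lines in red. Only 1435888_at and 1424932_at set the tumour lines clearly below the parental arrays, and the GFP-labelled array is lowest in both, at 6.30 and 5.40.

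Erbb2 was not called. It read 8.19, 8.28 and 8.09 in parental arrays and 8.30, 8.16, 8.08 and 8.35 in tumour lines. The difference of 0.04 (SE 0.09) was within the spread of both groups (limma adjusted p = 0.803). Of the 2 receptor genes outside the list of 9, 0 were called by limma and 0 had an unadjusted p under 0.05. Erbb3, the receptor gene whose product pairs with ERBB2 for neuregulin, read 5.77 to 5.88 in parental cells and 5.82, 5.91, 7.48 and 5.85 in tumour lines 3 to 6, so that line 5 alone stood apart. Erbb4 read 3.84 to 3.98 in parental cells and 3.52 to 4.06 in the lines, at the trpnX level. The 4 further ligand genes Egf, Nrg2, Nrg3 and Nrg4 were not called by limma either (1 with an unadjusted p under 0.05, Egf), with differences of 0.27, -0.16, -0.02 and 0.04.

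The tumour lines were then set against each other. Each line is 1 array, so their differences have no replicate check and no test. The highest and the lowest line were at least 2-fold apart in 2 of the 8 genes, Epgn and Btc, where this held for 4.61% of all genes. Epgn ranged over 4.39 log2 units (21.0-fold) and Btc over 1.26 (2.40-fold), against parental ranges of 0.90 and 0.02. Both genes gave the lines the same order, with line 5 highest, then lines 3 and 6, and line 4 lowest. The second Btc probe set gave that order as well, over 1.43 units. Lines 3 and 6 lay close together on the brighter Btc probe set (7.496 and 7.40) and further apart for Epgn (11.07 and 9.47). The count of 2 genes became 1 without line 4 or without line 5.

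Against the parental mean, Epgn was higher by 5.34, 1.60, 5.99 and 3.73 in lines 3, 4, 5 and 6, and Btc by 1.21, 0.53, 1.80 and 1.12. Ereg, which lies between these genes on the chromosome, gave -0.53, -0.48, -0.42 and -0.32, but it was near the trpnX level in every line, where an order of lines cannot be read. Line 4 passed 2-fold from the parental mean in 2 of the 8 genes, Epgn and Egfr, where 9.55% of all genes passed. Lines 3, 5 and 6 passed it in 3 genes each, Epgn, Btc and Egfr, where 8.95%, 10.9% and 9.07% of all genes passed. Over the lines the ranges of the other genes were 0.81 for Hbegf, 0.79 for Nrg1, 0.45 for Egfr, 0.27 for Erbb2, 0.21 for Ereg and 0.14 for Tgfa. Hbegf ran in another order, with line 6 highest and line 4 lowest, and Nrg1 was highest in line 5 and lowest in line 6.

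**Figure D3:**
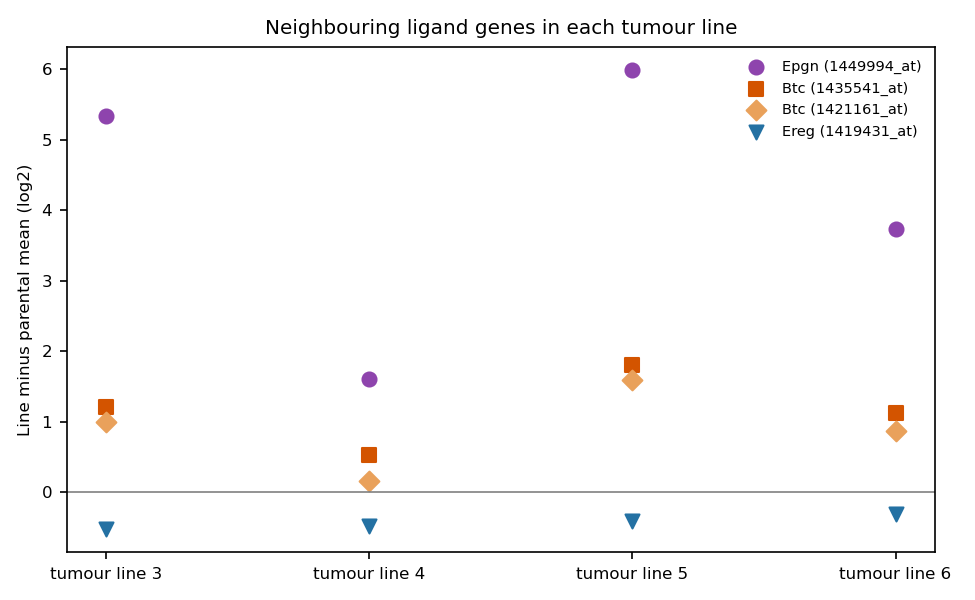
Difference of each tumour line from the mean of 3 parental arrays (log2) for the probe sets of Epgn, Btc and Ereg; each point is 1 array. Epgn and both Btc probe sets are highest in line 5 (5.99, 1.80 and 1.58) and lowest in line 4 (1.60, 0.53 and 0.15), whereas Ereg, near the trpnX level in every line, lies between -0.53 and -0.32.

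The GFP-labelled array was compared with the parental arrays, which the comparison above shares. It is a single array, assumed in the fit to vary like the other groups. The fit takes a single spread per gene from parental arrays and tumour lines together. The SE here thus also holds the spread between lines, which was wide for Epgn and Btc (SD 1.95 and 0.52, against 0.49 and 0.01 in parental arrays). Of the 8 genes 4 were called, against 16.1% of all genes. Ereg and Hbegf were higher, where 7.43% of all genes were, and Egfr and Nrg1 were lower, where 8.66% were. Among single probe sets 8 of 18 were called, against 14.4%.

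Egfr differed most in this array. It read 6.30 with the brightest probe set and 5.40 with 1424932_at, each far below the lowest parental value of that probe set. The differences were -3.54 (SE 0.16, 11.6-fold lower, limma adjusted p = 6.02e-06) and -3.33 (SE 0.15, adjusted p = 4.01e-06 among single probe sets). Probe set 1460420_a_at, not called in tumour lines, read 7.54 and was lower by a smaller step (-0.54, SE 0.12, limma adjusted p = 0.0205). Nrg1 read 6.51, below all parental and tumour-line values, and differed from parental arrays by -1.28 (SE 0.28, limma adjusted p = 0.0171).

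Ereg and Hbegf were the ligand genes called higher in the same array. Ereg read 5.92, its highest value on any array. The difference from parental arrays was 1.44 (SE 0.14, 2.71-fold, adjusted p = 0.00032 in limma). Hbegf read 10.53 and 10.17 with its probe sets, 1.14 (SE 0.25, limma adjusted p = 0.0173) and 1.02 (SE 0.22) above parental arrays. Tgfa depended on the probe set: the one with the highest mean differed by -0.04 (SE 0.12), but 1421943_at read 7.11 against 5.03, 5.12 and 5.20 in parental arrays. That rise of 1.99 (SE 0.12, 3.98-fold) was called among single probe sets (limma adjusted p = 1.92e-05). Epgn, Btc and Erbb2 differed by -0.11, 0.14 and -0.09 and were not called. The calls of Hbegf and Nrg1 were close to the threshold. Hbegf lost its call without parental array 2 (adjusted p = 0.0505) or 3 (0.0543), and Nrg1 without parental array 1 (0.05002) or 3 (0.0556), within ranges over the alternatives of 0.00373 to 0.0543 and 0.00396 to 0.0556. The count was 2 of 8 without parental array 3.

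**Figure D4:**
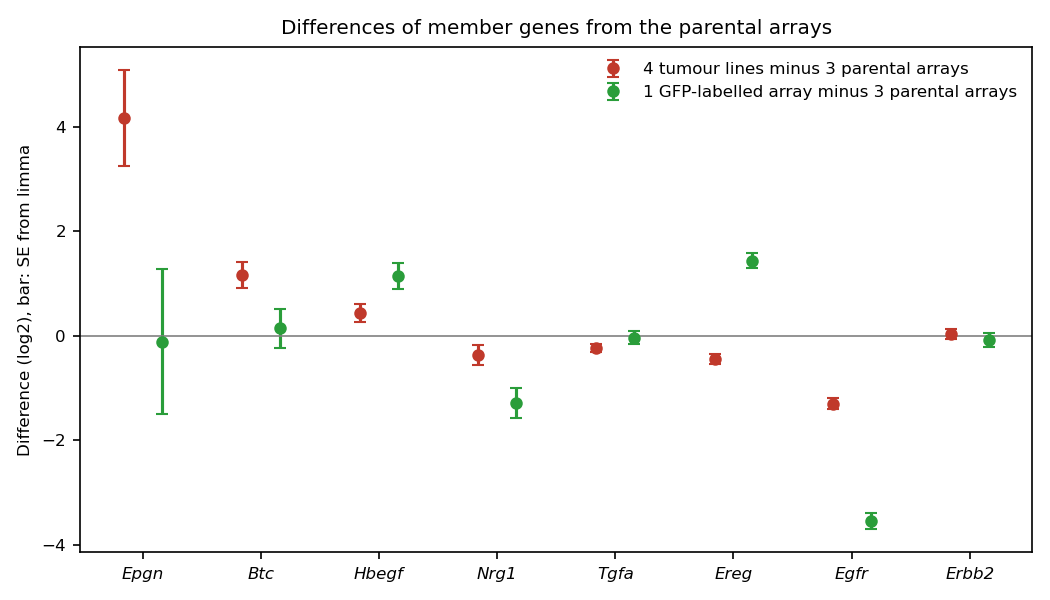
Difference (log2) of the 4 tumour lines and of the single GFP-labelled array from the same 3 parental arrays for the 8 genes; bars are standard errors from limma. Epgn (4.17) and Btc (1.16) are called higher in tumour lines and are not called in the GFP-labelled array (-0.11 and 0.14). Btc was not called between tumour lines and that array directly. Ereg lies at -0.44 in tumour lines and 1.44 in the GFP-labelled array, and Egfr is lower in both (-1.30 and -3.54).

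Tumour lines and the GFP-labelled array were also compared directly. Of the 8 genes 4 were called, against 30.3% of all genes. Epgn (4.28, SE 1.34, limma adjusted p = 0.0423), Nrg1 (0.92, SE 0.27, adjusted p = 0.0345) and Egfr (2.24, SE 0.16, adjusted p = 2.28e-05) were higher in tumour lines, where 14.0% of all genes were. Ereg was lower (-1.88, SE 0.14, adjusted p = 2.67e-05), where 16.4% were. Btc (1.02, SE 0.36, limma adjusted p = 0.0637) and Hbegf (-0.70, SE 0.24, adjusted p = 0.0609) missed the threshold. Among single probe sets 8 of 18 were called, against 29.0%, among them Tgfa 1421943_at (-1.79, SE 0.11). The calls of Epgn and Nrg1 ended without parental array 1, 2 or 3 or without tumour line 3, and that of Epgn also without line 6. Their adjusted p-values in limma then lay between 0.0609 and 0.0747 for Epgn and 0.0540 and 0.0647 for Nrg1. With a trended and robust prior that of Epgn was 0.0946. Btc was called without line 4 or line 5, and Hbegf without line 4 or line 6. Over all alternatives, not only those that left out a line, Btc gained its call in 3 of 15 and Hbegf in 5 of 16. Without parental arrays 1, 2 or 3 or tumour line 3 the count was 2 of 8 rather than 4.

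The order of the groups differed by gene, and is given by the brightest probe set of each. On Egfr 1460420_a_at tumour lines and parental arrays differed by -0.02 (SE 0.08), so the order below does not hold there. Egfr was highest in parental arrays, lower in tumour lines and lowest in the GFP-labelled array, with all 3 steps called. Ereg was highest in that array, and its step to the parental arrays was called. Its tumour lines were called lower than both, but lay near the trpnX level, so only the direction is given. Epgn was highest in tumour lines, and its parental arrays and the GFP-labelled array did not differ beyond their spread. Nrg1 was lowest in the GFP-labelled array, and parental arrays and tumour lines did not differ beyond theirs. For Erbb2 none of the neighbouring groups differed beyond the spread.

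Epgn, Ereg, Areg and Btc follow each other in that order on chromosome 5, with 0 other protein-coding genes between them in the RefSeq gene table. Of the 8 other measured genes in the window of 5 genes on either side, 6 were called in tumour lines against parental cells, 5 of them higher, where 36.0% of all genes were called and 16.6% called higher. On the Epgn side these were the chemokine genes Cxcl1 (3.06, SE 0.08, limma adjusted p = 1.0e-07) and Cxcl2 (0.37, SE 0.12, adjusted p = 0.0369), the latter near the trpnX level in parental arrays (3.80 to 4.01) and little above it in the lines (4.10 to 4.54), and Mthfd2l, a mitochondrial folate enzyme gene next to Epgn, which was lower by its brightest probe set (-0.33, SE 0.07). On the Btc side they were Parm1 (1.87, SE 0.20), the ubiquitin ligase gene Rchy1 (0.57, SE 0.09) and the kinase gene Cdkl2 (1.16, SE 0.15). Within the run of ligand genes Epgn and Btc rose, and Ereg, between them, was near the trpnX level in the lines. Cxcl1 varied little between the lines (range 0.24), and Parm1 over 0.91. Mthfd2l turned to 1.12 (adjusted p = 0.000551) by its most variable probe set, and Cxcl2 lost its call without parental array 1 (0.119) or 2 (0.127) or tumour line 3 (0.0589), and with the GFP-labelled array in the parental group (0.0689).

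**Figure D5:**
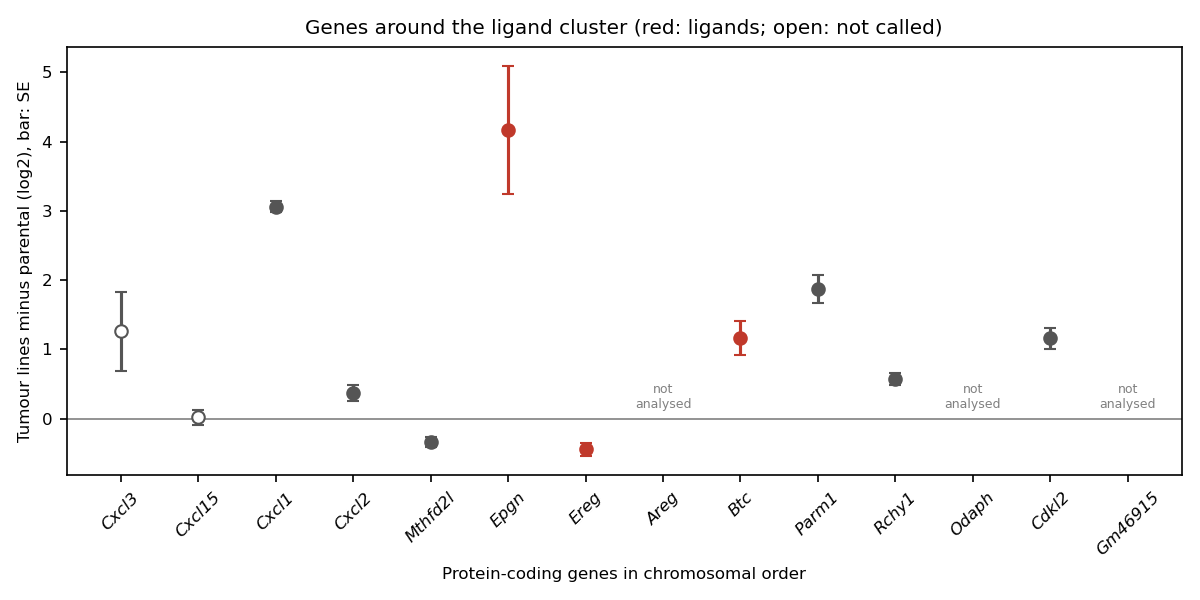
Difference between 4 tumour lines and 3 parental arrays (log2, bars are standard errors from limma) for protein-coding genes in chromosomal order around the ligand genes, which are in red; open points were not called, and genes with no point were not analysed here. Epgn (4.17) and Btc (1.16) are above 0 with Cxcl1 (3.06) and Parm1 (1.87), while Mthfd2l (-0.33) and Ereg (-0.44, near background in the lines) are below it.

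Of the 76 measured genes in 6 lists of pathway genes, 34 were called in tumour lines against parental cells (44.7%). The share of all genes called was 36.0%. Of the pathway genes 14 were higher and 20 lower (16.6% and 19.4% of all genes were), and their median difference was -0.02. Where only genes above the median level were tested, 36 of 62 pathway genes were called, and 5319 of 9096 of all genes. The proteases and cofactors that release ligands went both ways, 3 of 12 higher and 5 lower, with a median of -0.21. The sheddase gene Adam8 (1.95, SE 0.25) and the rhomboid protease gene Rhbdl2 (1.37, SE 0.25) rose, and Adam19 fell by 1.58 on the log2 scale (SE 0.17). The best known sheddases of EGFR ligands, named here after their values were seen, were lower: Adam17 by -0.63 (SE 0.11, limma adjusted p = 0.00184) and Adam10 by -0.35 (SE 0.10, adjusted p = 0.0258). Adam12, the remaining gene called higher, rose by 0.94 (SE 0.26, limma adjusted p = 0.0202). It too was named after its values were seen. Adam10 lost its call without parental array 1, 2 or 3 (adjusted p = 0.0796, 0.0719 and 0.0791) or tumour line 3 or 5 (0.0582 and 0.0547). In the GFP-labelled array Adam8, Rhbdl2 and Adam19 differed from parental arrays by 1.69, 0.34 and -0.50. Adam17, Adam10 and Adam12 differed there by 0.37, 0.04 and -1.89.

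The counts of the next lists stand beside 16.6% of all genes called higher and 19.4% called lower. Among 22 measured transducers downstream of the receptors, 3 were higher and 4 lower, with a median of 0.03. The adaptor gene Grb2 rose by 0.99 (SE 0.06), while the phospholipase gene Plcg1 (-1.48, SE 0.12) and the docking protein gene Gab1 (-0.93, SE 0.07) fell. Of 20 genes that restrain or traffic the receptors, 4 were higher and 6 lower, with a median of -0.01. Errfi1, which encodes a direct inhibitor of EGFR, rose by 0.82 (SE 0.16), and Rin1 (-0.87, SE 0.17) and the receptor inhibitor gene Lrig1 (-0.83, SE 0.25) fell. Lrig1 was not called without parental array 1, 2 or 3 (limma adjusted p = 0.0963, 0.0907 and 0.0824) or tumour line 6 (0.0596), nor with the GFP-labelled array in the parental group (0.0653). Of 16 genes known to respond to the pathway, 4 were higher and 5 lower, with a median of -0.04. The AP-1 gene Fosl1 (1.78, SE 0.12) and Ier3 (1.77, SE 0.33) rose, and the immediate early gene Egr1 fell by 1.77 on the log2 scale (SE 0.35). Fosl1 and Egr1 moved the same way in the GFP-labelled array (2.28 and -3.26). Neither was called with that array pooled with the parental arrays (1.21 and -0.95, limma adjusted p = 0.105 and 0.410). In the GFP-labelled array alone, Grb2, Plcg1 and Gab1 differed from parental arrays by 0.30, -0.76 and -0.98. Errfi1, Rin1, Lrig1 and Ier3 differed there by -0.33, 0.71, -0.47 and 1.09.

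Markers of other cells that could have come with the tumours were read beside these results. Of all genes, 16.6% were called higher in tumour lines than in parental arrays and 19.4% lower. Of 12 epithelial markers 0 were called by limma in tumour lines, and 1 had an unadjusted p under 0.05. Their mean level was 5.67 to 5.73 in parental cells and 5.66 to 5.68 in the lines. Of these, Cdh1 was at the trpnX level on every array (3.63 to 3.86), whereas Epcam read 8.18 to 8.41 in both groups and 7.61 in the GFP-labelled array. Of 8 endothelial markers 0 were called by limma and 0 had an unadjusted p under 0.05, with means of 4.83 to 4.998 and 4.90 to 5.05. In the GFP-labelled array 1 of the 8, Cdh5, was called higher than in parental arrays (6.71 against 4.63 to 4.84, a difference of 1.96, limma adjusted p = 9.12e-05), and the tumour lines were lower than that array by a like amount (-1.96). Cdh5 was named after its values were seen. Of 10 leukocyte markers 3 were called higher, Cd14 (1.83), Cd68 (0.80) and Lyz2 (0.49), with means of 5.49 to 5.66 and 5.89 to 5.96. Ptprc, the common leukocyte marker, read 3.90 to 4.37 in parental cells and 4.05 to 4.14 in the lines. Of 8 fibroblast markers 5 were called higher, with means of 8.17 to 8.33 and 9.49 to 10.34 and Thy1 (3.995), Fbln2 (3.02) and Col1a2 (2.99) the largest. In the GFP-labelled array that mean was 6.18. Pdgfrb (-0.09), Dcn (-0.04) and Lum (-0.31) were not called in tumour lines. Parental arrays already averaged 11.20 for Pdgfrb, 10.82 for Col1a1 and 9.81 for Dcn, though 4.98 for Thy1. With such parental levels, Pdgfrb, Col1a1 and Dcn cannot by themselves tell other cells from JoMa1 here. In the GFP-labelled array they read 8.57, 6.02 and 5.70. Col1a1 was among those called higher in tumour lines (0.61, limma adjusted p = 0.00108). Whether other cells were present in the lines was not tested. Of 7 proliferation markers 4 were called lower, with Bub1, Aurka and Mki67 the largest (-1.003, -0.70 and -0.60). The part of these genes in the differences of Epgn, Btc and Egfr was not tested.

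The genes most like Epgn and Egfr in pattern were found by the root mean square difference of values centred on each gene's own mean over the 8 arrays. Nearest to Epgn, whose own root mean square deviation was 2.43, were Sfrp2, a secreted modulator of Wnt signalling (0.64), the matrix proteoglycan gene Spock3 (0.68) and the ubiquitin ligase gene Rnf180 (0.68). Sfrp2 read 10.07, 7.60, 9.81 and 9.03 in tumour lines 3 to 6 and 5.29 to 5.69 in parental arrays. Its lowest line was line 4, as for Epgn, but its highest was line 3, where that of Epgn was line 5. Sfrp2 was picked for its likeness over these same arrays, so the shared lowest line is no separate observation. The same 3 genes were nearest without the GFP-labelled array. Nearest to Egfr (own deviation 1.11) were the protocadherin gene Pcdh19 (0.21), Kng1 (0.22) and the actin-binding protein gene Dbn1 (0.25). They read 8.16, 5.03 and 6.94 in that array, where Egfr was low too, and 0 of the 3 were among the nearest genes without it. The distances are a description over arrays that fall into groups.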

How the data were processed

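Total RNA of 8 mouse samples was labelled with biotin and read on 1 array each, per the labels' protocols. The authors deposited log2 RMA levels of every probe set. The tools RMA and Partek come from the submitters' processing notes, which give no version, and the log2 scale was read from the values. RMA subtracts background, brings arrays to a common distribution and combines the probes of a probe set. It compresses differences of dim probe sets and removes changes in total RNA. A genome build: not given in the sources used here.

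Of 45101 probe sets, 34945 carried 1 symbol in the platform annotation, 932 several, 9160 none and 64 were controls. Only the first kind was tested. A RefSeq table of GRCm38.p6 held the gene IDs of 34741, and 0 symbols changed. For each of 18193 genes the probe set of highest mean was used. Limma 3.58.1 in R 4.3.3 (lmFit, eBayes) fitted 1 coefficient per group to all 8 arrays, two-sided, with Benjamini-Hochberg adjustment over all genes, or over all probe sets where these were tested singly. Calls are at an adjusted p under 0.05. The number of arrays limits the precision. The fit was tested on simulated data. Promoter windows of 250 bases were read from a RefSeq table, which held 6 of the 9 listed genes. Ereg, Hbegf and Nrg1 were not among them.

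The genes and gene lists were chosen with earlier results of these data known. Named genes were all listed genes, up to 3 called genes per list with the largest change, the called neighbours on the chromosome, and the 3 genes nearest in pattern to a listed gene whose range was at least 2 log2 units. Some list genes were matched to no probe set and were not analysed here. Alternatives were other summaries of probe sets, a filter on level, the variance prior, array weights, normalization, the place of the array labelled GFP-transfected, leaving out each array, and the fold. Testing every probe set singly for the comparisons with the array labelled GFP-transfected was added after seeing the data.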

Additional observations from a re-analysis of the deposited data

Results flagged for a closer look

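A gap test for a single value far from the rest was run over the 4 tumour lines for all 18 probe sets, and 1 was marked. Egfr probe set 1451530_at read 5.88 in tumour line 6, while the other lines read 5.44 to 5.51. The gap to the nearest line was 0.84 of the whole range (past Dixon's critical value for 4 samples). Chance marks about 1 in 20 such groups, and this probe set was not called in any comparison. Its parental values, 5.41 to 5.90, span the value of line 6.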

How the results depend on the processing

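No paired analysis was possible because the labels link no parental array to a tumour line. For tumour lines against parental arrays, 5 of 8 genes were called, 4 to 5 with an array left out, 2 where only genes above the median level were tested (4 of the 8), 3 with the GFP-labelled array put in the parental group, and 3 where at least 2-fold was asked. For probe sets the count of 6 became 5 to 7 with an array left out and 3 at 2-fold. Against parental arrays the GFP-labelled array gave 4 genes, 2 to 4 with an array left out and 2 above the median level. Tumour lines against that array gave 4, and 2 to 6 with an array left out. Genes at least 2-fold apart between lines numbered 2, 1 to 2 with an array left out, 4 at 1.5-fold and 1 at 4-fold. From the parental mean, 4-fold left 1 gene in lines 3, 5 and 6 and 0 in line 4. With probe sets averaged per gene, lines 4 and 6 had 1, and at 1.5-fold line 6 had 5. Leaving out an array left these counts at 3, 2, 3 and 3 for lines 3 to 6. Of the pathway genes, 24 to 36 were called with an array left out and 9 at 2-fold. In the chromosomal window of 11 measured genes 9 were called, 8 to 10 with an array left out, 7 with the GFP-labelled array in the parental group and 5 at 2-fold. Above the median level only 5 of them were tested, and all 5 were called. Over all genes in tumour lines against parental arrays, 5319 of 9096 were called above the median level and 1610 of 18193 at 2-fold. With an array left out 5030 to 6649 of the 18193 were called, and 5444 with the GFP-labelled array in the parental group. The 3 genes nearest to Egfr became 0 shared genes without the GFP-labelled array.

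Of 388 values of the 8 genes under alternatives, 336 kept direction and call, 30 lost the call, 14 gained it and 8 changed sign. The sign changes were in values near 0 or in Tgfa. For tumour lines against parental arrays they were Tgfa with the most variable probe set (0.21), Erbb2 without parental array 3 (-0.0109) and without tumour line 6 (-0.00563), in a range of -0.0109 to 0.0836 with an array left out. For the GFP-labelled array against parental arrays they were Tgfa with the mean of probe sets (0.78, adjusted p = 0.00158 in limma), the most variable probe set (1.99), normalization repeated (0.00697) and without parental array 2 (0.0321, range with an array left out -0.0769 to 0.0321), and Epgn without parental array 3 (0.0562, range -0.393 to 0.0562). Mthfd2l changed sign with the mean of probe sets (0.0296) and the most variable one (1.12). For the other 39 named genes 652 of 689 values kept direction and call. The causes were not tested beyond what each alternative leaves out.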
